A study of Mus musculus with 18 samples.

Results

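The comparison described here is that of mouse hippocampus after rotation in both directions with vision blocked (group D-V, 5 libraries) against rotation in both directions with vision free (group D+V, 5 libraries). These 10 libraries, out of 18 in the series, were chosen by their sample labels, and no measured value entered the choice. The groups share the rotation and differ in whether vision was blocked, and the labels call the D-V condition the Coriolis illusion. The remaining libraries are 5 of group S-V, turned in a single direction and also without sight, and 3 of a group labelled as blank control. Tissue was taken right after rotation. The labels name neither strain, age nor sex, and nothing in them ties a sample to an animal of its own, so the spread behind each p-value may be technical in part.

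The hippocampus builds a map of the surroundings from signals about self-motion and from visual landmarks. Head rotation is sensed by the semicircular canals of the inner ear, and head direction signals reach the hippocampal formation by way of the anterior thalamus. When vision is blocked, it can no longer correct the sense of motion that the canals give. Neurons that fire strongly turn on immediate early genes such as Fos, Arc and Npas4 within a short time, so these transcripts are a common readout of recent activity, while transcripts of receptors and ion channels usually move more slowly.

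Each D+V library held 15.03 to 25.31 M estimated counts and each D-V library 15.39 to 21.43 M. The mean number of counts differed by −1.842 M (D-V minus D+V), the mitochondrial share of counts was 8.33% ± 0.45 (SD, n = 5) with vision free and 8.46% ± 0.89 (SD, n = 5) with vision blocked, and none of total counts, mitochondrial share and number of genes with a count passed an exact permutation test (two-sided, adjusted p = 0.69, 0.802 and 0.69 over these 3 values). All 12 markers of hippocampal identity were present in all 10 libraries, the lowest being Spink8, at 14.6 CPM (counts relative to library size) or more. Tissue composition varied within both groups. Summed levels of 20 choroid plexus markers ran from 390.9 to 13010 CPM in D+V and from 389 to 14870 CPM in D-V, and 6 libraries of the series had a mean marker score above 0.5, a limit set after seeing the data: S-V replicates 2 and 4, D+V replicates 2 and 5 and D-V replicates 3 and 4. D+V replicate 5 lay close to this limit (score 0.547, against 0.361 in blank control replicate 2 and 1.99 or more in the other 5). D+V replicate 1 stood apart within its group in another way: in this library long transcripts were low relative to short ones (Spearman's rho of a gene's deviation with transcript length −0.409, against 0.189 to 0.424 in the other 4 D+V libraries), and the D-V libraries ranged from −0.446 to 0.296. Results are therefore given with all 10 libraries, without D+V replicate 1, and without the 6 libraries rich in choroid plexus markers. The last fit leaves 3 D+V and 3 D-V libraries. D+V replicate 1 was singled out from these same data, and of all fits with a single library left out, the fit without it called the most genes. Without it the remaining D+V libraries all had a positive rho with length, while the D-V values were of both signs. Adjusted p-values from that fit show how far a result hangs on this library and are not separate support.

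With all libraries in the model, no gene separated blocked from free vision at the chosen threshold. The quasi-likelihood test of edgeR called 0% of 14763 genes at an adjusted p under 0.05, and the smallest adjusted p was 0.0623, for Snrnp70. At an unadjusted p under 0.05 there were 754 genes with a higher level in D-V (5.11% of those tested) and 1269 with a lower level (8.6%). The 5 D-V libraries all lay above the 5 D+V libraries for 94 genes (0.637%) and all below them for 139 genes (0.942%). The result of 0 calls depended on which libraries were in the fit: without D+V replicate 1 the same test called 363 genes higher (2.47% of 14678 tested) and 867 lower (5.91%), and without D+V replicate 4 it called 70. Leaving out any other single library of either group gave 0 calls. After removal of the 6 libraries rich in choroid plexus markers it also called 0, and 185 genes (1.27% of 14604) were higher and 313 (2.14%) lower at an unadjusted p under 0.05. DESeq2 called 277 genes with all libraries, 39 higher and 238 lower, and limma voom with quality weights called 819.

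**Figure D1:**
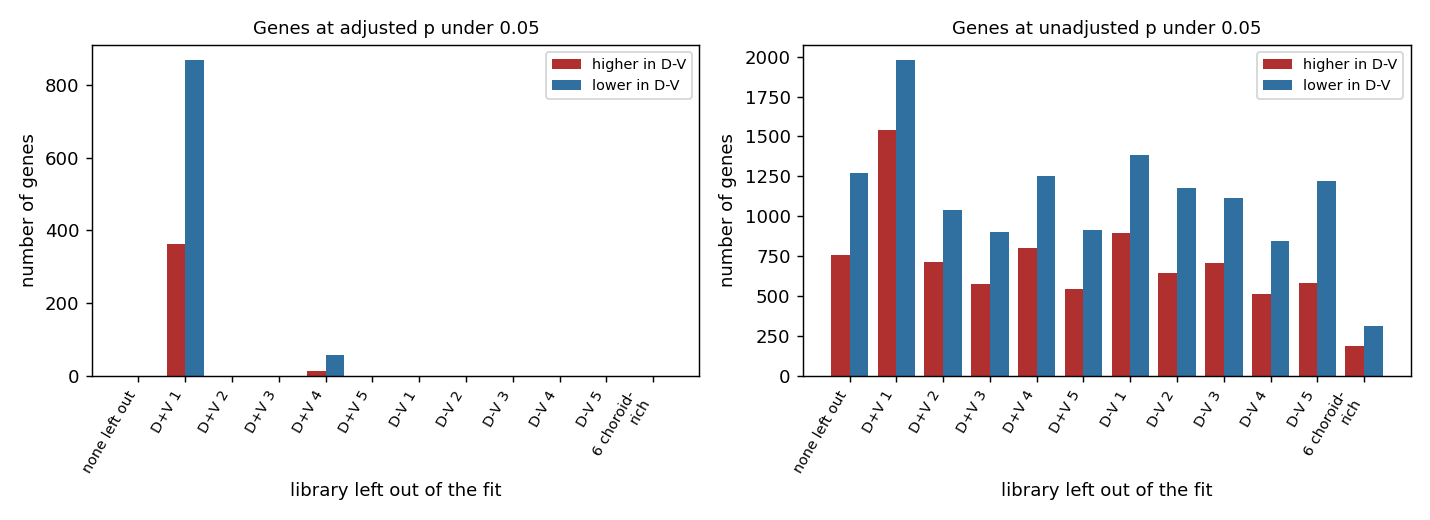
Number of genes higher (red) or lower (blue) in D-V than in D+V, at an adjusted p under 0.05 (left) and at an unadjusted p under 0.05 (right), with no library left out, with each named library left out, and without all 6 libraries rich in choroid plexus markers. The left panel is at 0 except without D+V replicate 1 (363 higher, 867 lower) and without D+V replicate 4 (12 higher, 58 lower).

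The genes with the smallest p among those higher in D-V included parts of the RNA processing and transcription machinery. Snrnp70 (ENSMUSG00000063511) encodes the U1-70K protein of the U1 small nuclear ribonucleoprotein, which recognises the start of introns. Its level was 69.2, 63.8, 64.0, 73.5 and 61.5 CPM in D+V replicates 1 to 5 and 89.2, 82.7, 80.8, 82.4 and 87.1 CPM in D-V replicates 1 to 5. Every D-V library lay above every D+V library, a 1.27-fold difference (0.35 ± 0.05 in log2, SE; adjusted p = 0.0623). The blank control stood at 80.9 ± 2.82 CPM (SD, n = 3) and S-V at 73.2 ± 2.83 CPM (SD, n = 5), so that D+V was the lowest of the 4 groups. The log2 difference was 0.36 without D+V replicate 1 (adjusted p = 0.00239) and 0.32 without the libraries rich in choroid plexus markers.

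Several other genes higher in D-V act in the nucleus. Phf1, a reader of trimethylated histone H3 lysine that associates with Polycomb repressive complexes, was at 26.3 ± 1.47 CPM in D+V and 32.4 ± 2.86 CPM in D-V (SD, n = 5 each; log2 difference 0.30 ± 0.06, SE). Ppp1r10, a nuclear targeting subunit of protein phosphatase, was at 54.3 ± 3.28 and 65.9 ± 4.36 CPM. Gtf2i, which encodes the transcription factor TFII-I, stood at 269.5 ± 15.1 CPM with vision free and 311 ± 9.78 CPM with vision blocked. Zc3h10, a zinc finger protein that binds RNA, ran from 12.1 to 14.5 CPM in D+V and from 16.6 to 17.5 CPM in D-V. None of the 4 had an adjusted p under 0.05 with all libraries (0.0901 each). Without D+V replicate 1 their adjusted p ran from 0.00925 (Gtf2i) to 0.0195 (Zc3h10). Levels were also compared after removal of the trend that each library showed with transcript GC content and length; in this fit the difference of Phf1 was 0.20, against 0.30 before.

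The remaining genes among the 10 with the smallest p and a higher level in D-V have synaptic, ubiquitin or vascular roles. Dbn1 encodes drebrin, which binds actin in dendritic spines, and was at 264, 239, 262, 279.9 and 252.4 CPM in D+V and 312, 294, 302, 305 and 313 CPM in D-V. The 2 groups did not overlap, at a log2 difference of 0.23 ± 0.05 (SE, adjusted p = 0.0901, and 0.00858 without D+V replicate 1). Mib2, a ubiquitin ligase that acts on Notch ligands, stood at 61.9 ± 2.69 CPM in D+V and 72.7 ± 2.28 CPM in D-V, and Trim8, another ubiquitin ligase, at 62.9 ± 2.84 and 73.9 ± 4.54 CPM. With GC and length trends removed the differences of Dbn1, Mib2 and Trim8 were 0.13, 0.12 and 0.13, against 0.23, 0.23 and 0.23 before. Eng and Pdgfrb, markers of blood vessels, are given with the vascular genes. For all 10 genes the groups did not overlap, and for all 10 the difference was between 0.21 and 0.58 in log2. These genes were picked by their p in this same comparison, so the lack of overlap follows largely from that choice. Of all genes tested, 0.637% were higher in D-V with no overlap.

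Among the genes lower in D-V, the difference was larger for some genes, and D+V replicate 1 often lay with the D-V libraries. Sept7 (ENSMUSG00000001833) encodes a septin, a filament protein found at the base of dendritic spines, and read 269.9, 288, 282, 267 and 256 CPM in D+V and 237, 231, 209, 212 and 191 CPM in D-V. All D+V libraries were above all D-V libraries, with a log2 difference of -0.33 ± 0.06 (SE, adjusted p = 0.0901). It was -0.06 once GC and length trends were removed. Tmem167, a small membrane protein of the secretory pathway, also did not overlap, at 43.2 ± 1.84 CPM in D+V and 35.2 ± 2.02 CPM in D-V, and its difference of -0.30 became -0.03 with the trends removed. For Fut9, a fucosyltransferase that makes the Lewis x carbohydrate on brain glycoproteins, the D+V libraries read 36.2, 61.8, 75.8, 47.4 and 70.6 CPM and the D-V libraries 34.4, 38.0, 32.1, 28.1 and 27.1 CPM. Here D+V replicate 1 fell inside the D-V range and the other 4 D+V libraries lay above it. The log2 difference was -0.86 ± 0.16 with all libraries (SE, adjusted p = 0.0901) and -0.99 without that library (adjusted p = 0.00127), and -0.34 with the trends removed. Ccdc88a, an actin-binding protein known as girdin, showed the same arrangement, with 25.4, 57.6, 56.8, 31.9 and 58.5 CPM in D+V and 24.3, 25.3, 27.6, 19.1 and 21.1 CPM in D-V. Its log2 difference went from -0.97 ± 0.19 (SE) to -1.12 without D+V replicate 1 -0.68 without the libraries rich in choroid plexus markers, and -0.61 with the trends removed.

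Arid4b, a subunit of the Sin3 histone deacetylase complex, was at 22.3, 44.3, 34.9, 23.3 and 35.2 CPM in D+V and 19.1, 20.2, 19.1, 18.1 and 19.2 CPM in D-V. The D-V libraries were close together and all below D+V, at a log2 difference of -0.74 ± 0.14 (SE, adjusted p = 0.0901) that was -0.45 without the libraries rich in choroid plexus markers. Ppig, a cyclophilin that associates with splicing factors, and Dok6, a docking protein of receptor tyrosine kinases, stood 0.61 and 0.69 lower on the log2 scale in D-V and overlapped in D+V replicate 1. With the trends removed their differences were -0.32 and -0.28. Zfp994 and Zfp101, a pair of zinc finger genes, did not overlap and stood 0.93 and 0.70 lower. The genes with the largest differences were more variable. Gucy1a2, a subunit of the receptor for nitric oxide, ran from 1.13 to 7.35 CPM in D+V and from 0.755 to 2.01 CPM in D-V (log2 difference -1.61 ± 0.40, SE). Its lowest D+V value was in replicate 1, and the difference was -0.80 without the libraries rich in choroid plexus markers. Hipk2, a nuclear kinase, read 10.9, 92.7, 84.2, 30.3 and 80.9 CPM in D+V and 27.7, 23.2, 26.8, 11.2 and 33.7 CPM in D-V, so D+V replicates 1 and 4 lay below the highest D-V library. Its difference of -1.28 was -1.55 without D+V replicate 1 and -0.55 without the libraries rich in choroid plexus markers. Xkr4 showed -1.22 with all libraries, -1.47 without D+V replicate 1 and -0.81 without the libraries rich in choroid plexus markers. With GC and length trends removed the differences of Gucy1a2, Hipk2 and Xkr4 were -1.41, -1.15 and -1.06. Under the same limits the largest differences in the other direction, between 0.74 and 0.82, were those of Scarf1, Tinagl1, Hspb1 and Ccn2. All 4 overlapped between groups. Without the libraries rich in choroid plexus markers Tinagl1 was at 0.38 and Hspb1 at 0.43. One identifier of Fam220a, a symbol that a second identifier shares, was at 0 in all libraries of the 2 groups except D+V replicate 5, at 15.3 CPM, and no fold is given for it.

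The receptors for the main excitatory and inhibitory transmitters were examined as 2 lists. AMPA and NMDA receptors are the ion channels through which glutamate drives fast transmission and plasticity, and of 17 subunit and partner genes 9 had a positive and 8 a negative difference, with 2 higher and 4 lower at an unadjusted p under 0.05, where 5.11% of all genes were higher and 8.6% lower. With the trends of each library with GC content and length removed, 1 was higher and 0 lower. Gria2 (ENSMUSG00000033981), the subunit that makes AMPA receptors impermeable to calcium, was at 357, 486, 516, 421 and 492 CPM in D+V and 352, 347, 320.0, 287 and 322 CPM in D-V. Every D-V library was below every D+V library (log2 difference -0.48 ± 0.10, SE; adjusted p = 0.0901). The blank control, at 375 ± 56.4 CPM (SD, n = 3), and S-V, at 346 ± 27.1 CPM (SD, n = 5), lay between the 2 groups. The difference was -0.56 without D+V replicate 1 (adjusted p = 0.00235), -0.34 without the libraries rich in choroid plexus markers, and -0.07 after removal of the trends that each library showed with GC content and with transcript length. Grin2b, an NMDA receptor subunit with a long transcript, read 268, 525, 677, 502 and 623 CPM in D+V and 448, 374, 343, 298 and 436 CPM in D-V. It overlapped only through D+V replicate 1, which had the lowest value of all 10, and its difference of -0.45 became -0.07 when the trends were removed. Grin2d, a subunit enriched in interneurons, went the other way, at 13.6 ± 0.568 CPM in D+V and 18.01 ± 1.26 CPM in D-V with no overlap. Its difference was 0.41 ± 0.10 (SE, adjusted p = 0.105) and stayed at 0.34 with the trends removed. Gria1, another AMPA receptor subunit, had a difference of 0.04 ± 0.07 (SE, adjusted p = 0.867).

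GABA is the main inhibitory transmitter, and of 22 genes for its receptors, synthesis and transport 16 had a negative difference. At an unadjusted p under 0.05, 0 were higher and 7 lower, where 5.11% and 8.6% of all genes were, and all 7 were subunits of the GABA-A receptor. Gabrb2, at 23.8, 72.0, 90.3, 46.8 and 77.0 CPM in D+V and 44.6, 33.4, 33.7, 19.6 and 37.2 CPM in D-V, had its low D+V value in replicate 1 and passed the threshold without it (log2 difference -1.08, adjusted p = 0.00425). Gabrb1 behaved alike, with a difference of -0.48 and, without that library, -0.62 (adjusted p = 0.00453). Without the libraries rich in choroid plexus markers Gabrb2 was at -0.47 and Gabrb1 at -0.27. With GC and length trends removed Gabrb2 was at -0.83, against -0.87 before, and Gabrb1 at -0.11. The enzymes that make GABA did not follow the receptors: the difference was 0.09 ± 0.08 for Gad1 and -0.08 ± 0.11 for Gad2 (SE). The median over the list was −0.08, against 0.0089 over all genes tested. It was −0.01 with GC and length trends removed, where 2 genes were lower at an unadjusted p under 0.05 (4.57% of all genes), and −0.03 without the libraries rich in choroid plexus markers.

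GC content and transcript length went with the direction of the difference across all genes. Genes lower in D-V at an unadjusted p under 0.05 had a median GC content of 42.6% and were 5761 bases long at the median, genes higher in D-V had 55.9% and 2827 bases, and all tested genes 49.9% and 3457 bases. Across 14743 genes, which are not independent replicates, Spearman's rho of the log2 difference was 0.414 with GC content and −0.381 with length. From the lowest to the highest quintile of genes by GC content the median difference went through −0.11, −0.03, 0.01, 0.05 and 0.10. Of the lowest quintile, 26.4% were lower in D-V at an unadjusted p under 0.05 and 0.373% higher. In the highest quintile the shares were 0.746% and 13.1%. The relation was seen without D+V replicate 1 (rho with GC content 0.359) and without the libraries rich in choroid plexus markers (0.392). By library, the lowest quintile lay between 0.0484 and 0.0982 above the mean of the 18 libraries in D+V and between −0.0974 and 0.0095 in D-V, with no overlap. The highest quintile did overlap, at −0.0953 to −0.0194 in D+V and −0.0443 to 0.106 in D-V. With each library's trends removed, the numbers of genes at an unadjusted p under 0.05 were 442 higher (2.99%) and 675 lower (4.57%), and edgeR called 0 genes. Transcript GC content was that of the longest annotated transcript in GENCODE M21, which may not be the annotation the counts were made with. A difference between libraries that depends on GC content and the effect of blocked vision cannot be told apart here.

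**Figure D2:**
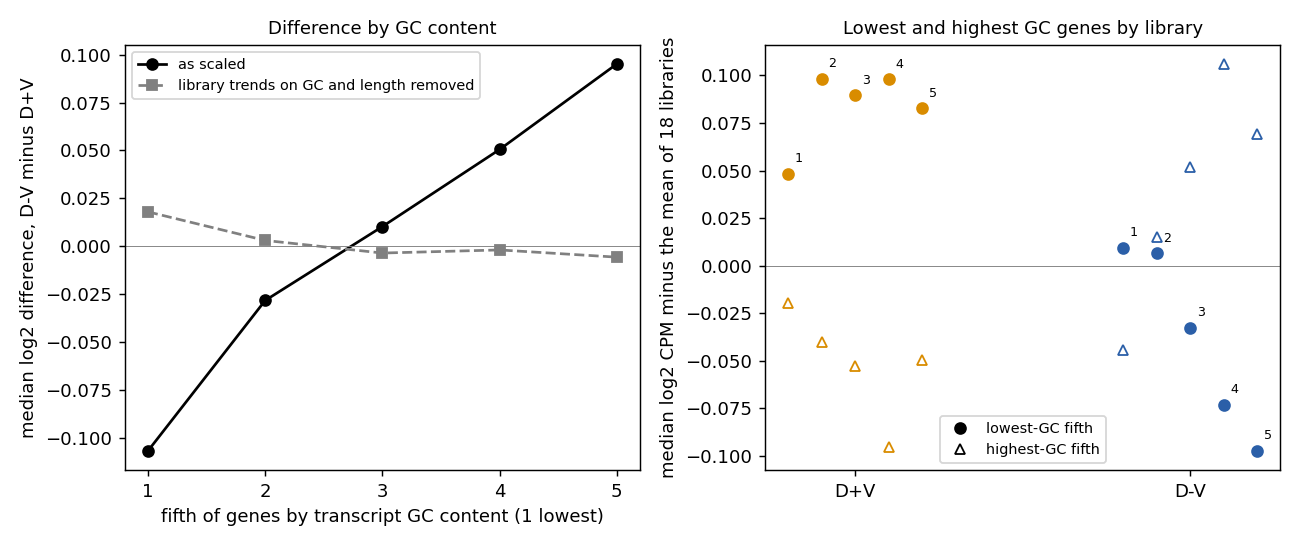
Left: median log2 difference (D-V minus D+V) in 5 equal groups of genes by transcript GC content, as scaled (black) and after removal of the trends of each library with GC content and length (grey). Right: median level of the lowest-GC (filled circles) and highest-GC (open triangles) quintile in each library relative to the mean of 18 libraries. The black line climbs from −0.11 to 0.10 and the grey line stays between −0.01 and 0.02. The filled circles of D+V all lie above those of D-V, while the open triangles of the groups overlap.

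The zinc finger genes whose symbol starts with Zfp, most of them DNA-binding regulators of transcription, were grouped after their values were seen. Of 365 tested, 259 had a negative difference, 105 were lower and 11 higher at an unadjusted p under 0.05, and the median difference was −0.13, where 8.6% of all genes were lower and 5.11% higher. Zfp994 read 3.65, 6.68, 5.50, 3.98 and 5.87 CPM in D+V and 2.84, 2.72, 3.44, 2.44 and 1.95 CPM in D-V, and Zfp101 read 6.21, 8.26, 7.60, 5.71 and 7.23 CPM in D+V and 4.34, 4.46, 3.89, 5.64 and 3.18 CPM in D-V, so neither overlapped. Their median GC content, 44.3%, was under that of all genes, and with the GC and length trends removed the median difference was −0.06, with 52 lower and 5 higher, where 4.57% of all genes were lower and 2.99% higher. Without the libraries rich in choroid plexus markers it was −0.07, with 31 lower and 3 higher, where 2.14% of all genes were lower and 1.27% higher.

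Genes of the endoplasmic reticulum stress response formed the list with the most members higher in D-V at an unadjusted p under 0.05. When unfolded proteins build up in the endoplasmic reticulum, the sensors ATF6, IRE1 and PERK are activated and raise chaperones, folding enzymes and the machinery that removes misfolded proteins. Active ATF6 acts through the endoplasmic reticulum stress response element, a CCAAT box bound by NF-Y, a spacer of 9 bases, and a CCACG box. The element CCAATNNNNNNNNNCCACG was searched on both strands in the 300-base RefSeq promoters of build GRCm38.p6, which reach from 250 bases before to the first bases after a gene's start. It was in 39 of 32851 promoters (0.119%) and in 19 of 11467 tested genes with a promoter (0.166%), against 8 of the 21 list members with a promoter. The list was drawn up from known genes of this response. Its high share therefore follows from that choice and is no result about D-V and D+V. The 8 windows are shown because they hold the element that these members share. Each is written 5′ to 3′ on the gene's own strand with the element in capitals, including its spacer; where the element lies on the opposite strand the capitals begin with CGTGG.
Hspa5 (chr2:34772015-34772053, plus strand): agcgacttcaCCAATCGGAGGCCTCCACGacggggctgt
Hsp90b1 (chr10:86705523-86705666, minus strand): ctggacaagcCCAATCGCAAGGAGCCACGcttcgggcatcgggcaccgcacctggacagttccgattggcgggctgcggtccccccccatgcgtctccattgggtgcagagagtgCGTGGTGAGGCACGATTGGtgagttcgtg
Dnajc3 (chr14:118937817-118937855, plus strand): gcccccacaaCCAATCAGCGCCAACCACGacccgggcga
Pdia6 (chr12:17266481-17266519, plus strand): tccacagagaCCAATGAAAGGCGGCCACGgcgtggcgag
Calr (chr8:84847065-84847103, minus strand): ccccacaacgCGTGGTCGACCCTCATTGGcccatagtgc
Canx (chr11:50325790-50325828, minus strand): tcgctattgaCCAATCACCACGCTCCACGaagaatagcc
Creld2 (chr15:88819510-88819548, plus strand): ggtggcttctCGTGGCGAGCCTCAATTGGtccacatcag
Syvn1 (chr19:6046522-6046560, plus strand): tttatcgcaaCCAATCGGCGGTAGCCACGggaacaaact
The Hsp90b1 window holds 2 elements, the second on the opposite strand. A match is a description of the sequence and not a measured binding site.

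Of the 24 genes of this list, 18 had a positive difference, 12 were higher and 0 lower at an unadjusted p under 0.05, where 5.11% of all genes were higher. Hspa5 (ENSMUSG00000026864), the chaperone BiP that senses unfolded protein, was at 314, 202, 188, 265 and 166 CPM in D+V and 383, 256, 384, 281 and 234 CPM in D-V. The groups overlapped, since D+V replicate 1 was above 3 of the D-V libraries and D+V replicate 4 was above D-V replicates 2 and 5 (log2 difference 0.44 ± 0.16, SE, adjusted p = 0.234). Without D+V replicate 1 the difference was 0.58 (adjusted p = 0.0228), and without the libraries rich in choroid plexus markers it was 0.19. Creld2, a secreted stress protein, read 12.7, 9.74, 3.80, 10.6 and 7.91 CPM in D+V and 14.5, 11.3, 17.2, 14.1 and 11.02 CPM in D-V, with a difference of 0.59 ± 0.21 (SE). Syvn1, the ubiquitin ligase of the degradation pathway, was the member with no overlap, at 44.6, 34.7, 46.4, 47.1 and 41.4 CPM in D+V and 56.2, 48.1, 52.5, 49.2 and 48.8 CPM in D-V. Its log2 difference was 0.25 ± 0.08 (SE, adjusted p = 0.16) and 0.15 without the libraries rich in choroid plexus markers.

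The folding enzymes Pdia4 and Pdia6, which form disulfide bonds, had differences of 0.45 ± 0.16 and 0.31 ± 0.12 (SE), and the lectin chaperone Calr 0.26 ± 0.10 (SE). Atf4, the transcription factor downstream of PERK, ran from 103 to 133 CPM in D+V and from 125 to 131 CPM in D-V. Without the libraries rich in choroid plexus markers these differences were 0.29 for Pdia4, 0.12 for Pdia6, 0.16 for Calr and 0.09 for Atf4. Not all members lay in this direction. Canx, the membrane partner of Calr, had a difference of -0.06 ± 0.05, the co-chaperone Dnajc3 0.06 ± 0.10, and Hsp90b1, the chaperone GRP94, -0.01 ± 0.11 (SE), although all 3 hold the element. Ddit3, a transcription factor of prolonged stress, had 0.14 ± 0.11 (SE, adjusted p = 0.642). Among the 8 members with the element 6 were positive and 5 were at an unadjusted p under 0.05, with a median of 0.26. Among the 13 members with a promoter and no element 10 were positive and 5 were at that level, with a median of 0.18. These 2 medians were not compared by a test.

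Over the whole list the median difference was 0.18, and it stayed between 0.15 and 0.26 when any single library was left out. It was 0.16 with GC and length trends removed, with 8 members higher at an unadjusted p under 0.05. Without the libraries rich in choroid plexus markers it was 0.09 with 0 such members, in a fit where 1.27% of all genes were higher. The list score, the mean log2 CPM of the members relative to the mean of 18 libraries, was highest in D-V replicates 1 and 3 (0.238 and 0.239) and lowest in D+V replicate 5 (−0.28), and D-V replicate 3 and D+V replicate 5 are among the libraries rich in choroid plexus markers.

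**Figure D3:**
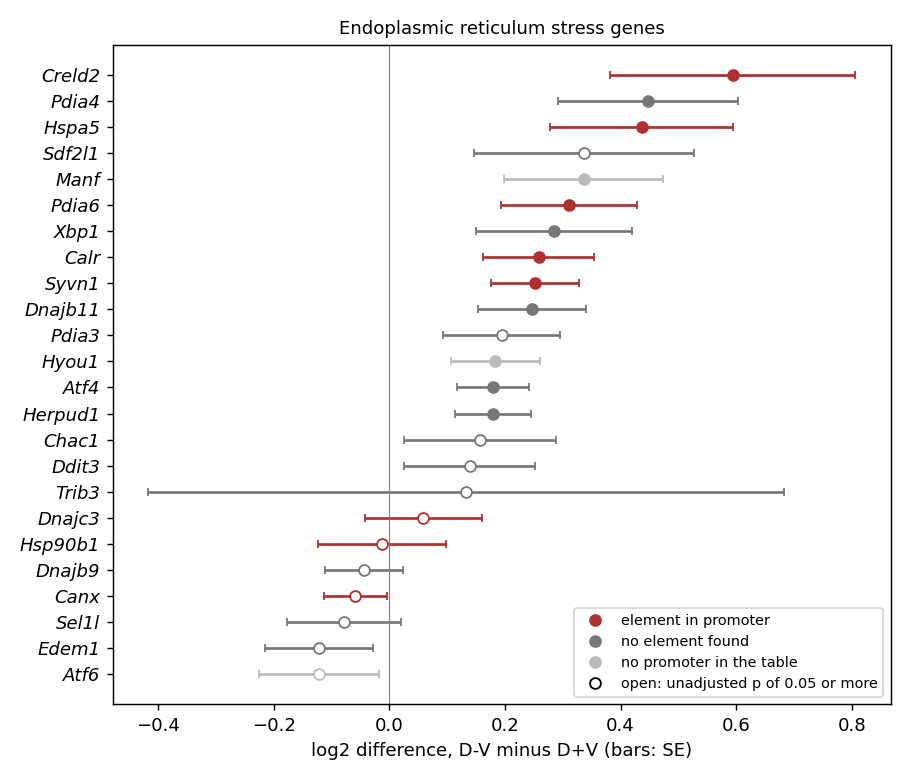
Log2 difference (D-V minus D+V) with its SE for the 24 endoplasmic reticulum stress genes, coloured by whether the promoter holds the element (red), does not (dark grey) or is not in the promoter table (light grey). Filled points are at an unadjusted p under 0.05. The points run from 0.59 for Creld2 to -0.12 for Atf6, with 12 filled points, all to the right of 0.

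Blood vessel genes had mostly positive differences, and the highest levels were in a pair of libraries. In bulk tissue, fewer cells of a type and less RNA per cell cannot be told apart, which holds for all cell type lists here. Of 24 endothelial and pericyte genes 22 had a positive difference and 7 were higher at an unadjusted p under 0.05, with 0 lower, where 5.11% of all genes were higher. Eng (ENSMUSG00000026814), the endothelial TGF-beta co-receptor endoglin, was at 27.3, 24.3, 21.9, 28.6 and 17.4 CPM in D+V and 37.5, 31.9, 40.7, 38.3 and 30.7 CPM in D-V. The groups did not overlap (log2 difference 0.58 ± 0.13, SE; adjusted p = 0.0901, and 0.0104 without D+V replicate 1), and the difference was 0.36 without the libraries rich in choroid plexus markers. Pdgfrb, the growth factor receptor of pericytes, also had no overlap, at 20.7, 19.7, 21.7, 23.6 and 24.4 CPM in D+V and 27.3, 27.0, 28.6, 28.6 and 25.5 CPM in D-V, with a difference of 0.32 ± 0.07 (SE). Cspg4, which pericytes share with oligodendrocyte precursors, differed by 0.39 ± 0.10 (SE), and Cldn5, the tight junction protein of the blood-brain barrier, by 0.39 ± 0.12 (SE, adjusted p = 0.152). The median difference of the list was 0.22 with all libraries and 0.06 without those rich in choroid plexus markers, where 3 genes were higher at an unadjusted p under 0.05 (1.27% of all genes). Summed levels ran from 1035 to 1254 CPM in D+V and from 1186 to 1586 CPM in D-V, and the 2 highest were D-V replicates 3 and 4, both rich in choroid plexus markers. Meningeal fibroblast markers were also highest in those 2 libraries (summed levels of 173 to 297.6 CPM in D+V and 132 to 447.7 CPM in D-V). For these the median went from 0.26 to −0.45 without the libraries rich in choroid plexus markers. Their part in the vascular difference was not tested.

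Astrocyte genes lay on the other side, with a negative difference for 17 of 20 and 6 lower at an unadjusted p under 0.05, where 8.6% of all genes were lower. Aqp4 (ENSMUSG00000024411), the water channel of astrocyte endfeet, was at 147, 191, 189.7, 149 and 153 CPM in D+V and 144, 119, 131, 129 and 131 CPM in D-V. The groups did not overlap (log2 difference -0.34 ± 0.08, SE; adjusted p = 0.0901, and 0.0105 without D+V replicate 1), and the difference was -0.21 with GC and length trends removed. Gja1, the gap junction protein connexin 43, was at 219.9 ± 20.4 CPM in D+V and 189 ± 9.24 CPM in D-V, again with no overlap. Slc4a4, a bicarbonate transporter, differed by -0.28 ± 0.07, the glutamate transporter Slc1a2 by -0.30 ± 0.11 and the filament protein Gfap by -0.30 ± 0.11 (SE). Without the libraries rich in choroid plexus markers Slc4a4 was at -0.12 and Gja1 at -0.11, against -0.22 with all. The list median was −0.13, also −0.13 with GC and length trends removed, and −0.04 without the libraries rich in choroid plexus markers, where 1 gene was lower at an unadjusted p under 0.05 (2.14% of all genes). Summed astrocyte levels were 6754 to 8394 CPM in D+V and 6111 to 7088 CPM in D-V, and the 3 highest, D+V replicates 2, 3 and 5, stood above all D-V libraries.

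Markers of thalamus and habenula, which adjoin the hippocampus in the brain, were mostly lower in D-V: 21 of 23 had a negative difference and 6 were lower at an unadjusted p under 0.05, where 8.6% of all genes were. Slc17a6, the vesicular glutamate transporter of thalamic neurons, was at 20.8, 12.9, 12.7, 15.7 and 10.5 CPM in D+V and 12.4, 7.28, 10.8, 5.11 and 7.91 CPM in D-V. The groups overlapped (log2 difference -0.74 ± 0.21, SE, adjusted p = 0.131). The difference was -0.58 without D+V replicate 1, which had the highest value of both groups, and -0.83 without the libraries rich in choroid plexus markers. Gbx2, a transcription factor of the developing thalamus, was barely detected, at 1.13, 0.857, 0.271, 0 and 0.185 CPM in D+V and 0.0466, 0.0970, 0, 0.0581 and 0 CPM in D-V. Rora, a nuclear receptor of thalamic neurons that is also a clock gene, was at 29.0 ± 7.33 CPM in D+V and 20.3 ± 2.01 CPM in D-V, and its difference of -0.51 was -0.20 with GC and length trends removed. The list median was −0.22, between −0.31 and −0.16 with any single library left out, and −0.16 without the libraries rich in choroid plexus markers. The summed level was 189.2 to 269.8 CPM in D+V and 177.6 to 220.4 CPM in D-V, while the blank control reached 308.2 CPM, the highest of the series.

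**Figure D4:**
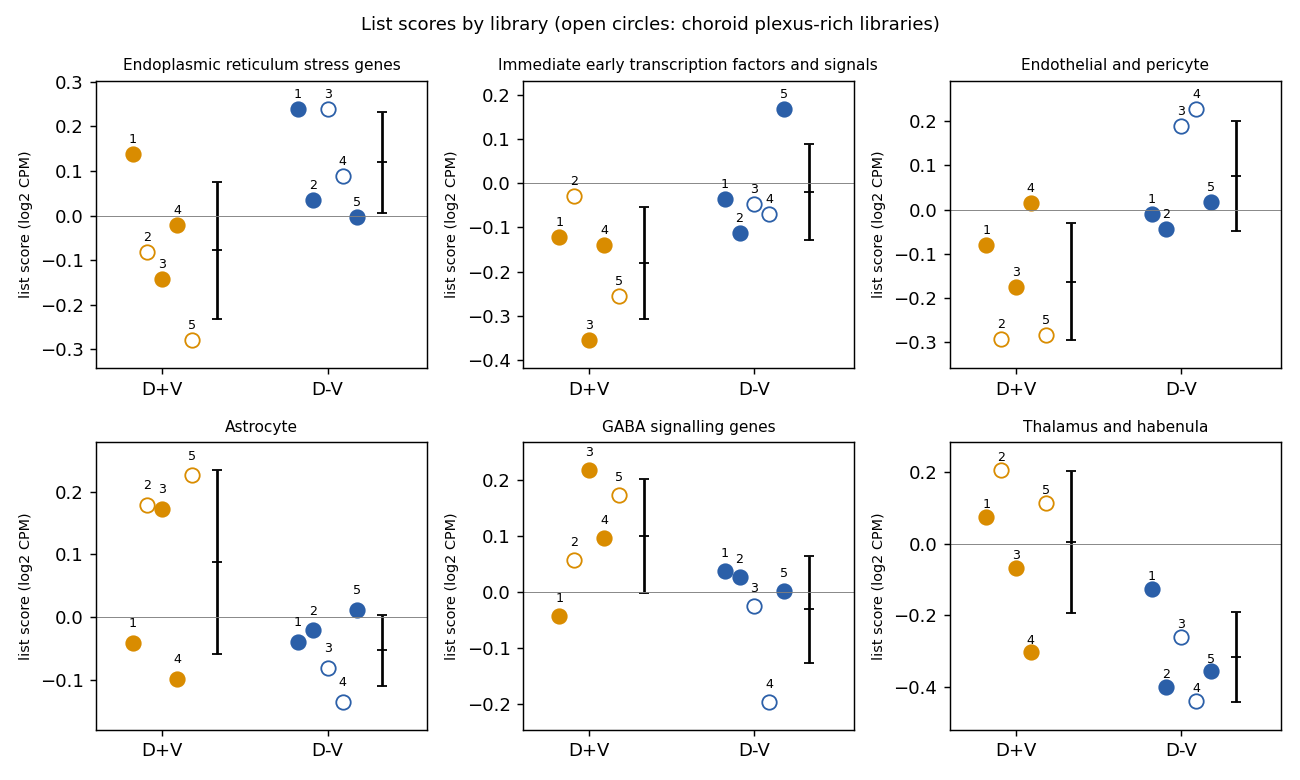
List scores (mean log2 CPM of the members minus the mean over 18 libraries) for 6 gene lists in the 5 D+V and 5 D-V libraries, numbered by replicate, with group means and SD as bars. Open circles mark the libraries rich in choroid plexus markers. The groups overlap in all 6 panels, and D-V replicate 5 is apart from the other D-V libraries for the immediate early genes, at 0.168.

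Immediate early genes, the readout of recent neuronal firing, had small positive differences for most members. Of 25 genes 23 had a positive difference, and 2 were at an unadjusted p under 0.05, both higher in D-V, against 5.11% of all genes. Fos was at 13.4, 17.2, 10.7, 11.2 and 10.1 CPM in D+V and 10.2, 11.8, 13.7, 9.99 and 22.2 CPM in D-V. The highest value was D-V replicate 5 and of the other 4 D-V libraries 3 lay inside the D+V range and D-V replicate 4 just below it (log2 difference 0.11 ± 0.20, SE; adjusted p = 0.868). Without D-V replicate 5 the sign turned, to −0.15. Npas4, which responds to calcium entry in excitatory neurons, read 7.55, 9.61, 10.1, 10.7 and 8.90 CPM in D+V and 10.6, 13.1, 11.6, 8.72 and 21.1 CPM in D-V, again with its highest value in D-V replicate 5. Its difference was 0.47 ± 0.20 (SE, adjusted p = 0.291). Arc, which acts in AMPA receptor uptake, was at 135, 169, 91.7, 127 and 115 CPM in D+V and 131, 131, 144, 122 and 224 CPM in D-V, with a difference of 0.24 ± 0.19 (SE). Junb had 0.21 ± 0.11, Nr4a1 0.14 ± 0.19 and Gadd45b 0.25 ± 0.09 (SE), the last becoming 0.11 with GC and length trends removed. The list median was 0.13, and between 0.07 and 0.18 with any single library left out. It was 0.05 with GC and length trends removed, where 0 members were higher at an unadjusted p under 0.05 (2.99% of all genes). Without the libraries rich in choroid plexus markers it was 0.21, where 4 members were higher (1.27% of all genes). That fit keeps D-V replicates 1, 2 and 5, with list scores of −0.036, −0.113 and 0.168, the last far from the other D-V libraries. Its D+V libraries, replicates 1, 3 and 4, had scores of −0.123, −0.356 and −0.140. How far the median of that fit hangs on D-V replicate 5 was not tested. Mean levels of Fos in the blank control (16.3 ± 1.26 CPM, SD, n = 3) and in S-V (17.7 ± 3.45 CPM, SD, n = 5) were above both D+V and D-V.

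Genes that activity raises later showed 2 of 21 higher at an unadjusted p under 0.05, against 5.11% of all genes. Vgf, a secreted neuropeptide precursor, was at 187, 135, 165, 182 and 152 CPM in D+V and 177, 213, 205, 215 and 212 CPM in D-V, and overlapped through D-V replicate 1 (log2 difference 0.32 ± 0.09, SE; adjusted p = 0.127, and 0.0173 without D+V replicate 1). Its difference was 0.18 with GC and length trends removed and 0.17 without the libraries rich in choroid plexus markers. Dusp5, a phosphatase of ERK kinase, was at 18.4 ± 2.96 CPM in D+V and 23.7 ± 3.003 CPM in D-V. Bdnf, a neurotrophin, had a difference of 0.03 ± 0.14 (SE, adjusted p = 0.961), with 30.7 to 37.5 CPM in D+V and 30.7 to 39.3 CPM in D-V.

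Corticosterone, the stress hormone of rodents, acts on a list of 27 responsive genes of which 15 had a positive and 12 a negative difference, with 1 higher and 4 lower at an unadjusted p under 0.05, against 5.11% and 8.6% of all genes. Fkbp5, a chaperone of the glucocorticoid receptor and a common marker of its activity, was at 71.3, 60.9, 51.8, 77.4 and 64.9 CPM in D+V and 68.8, 66.4, 59.3, 66.5 and 66.9 CPM in D-V, and its difference was 0.00 ± 0.10 (SE). The 4 lower genes included Pdk4, a kinase that limits glucose oxidation (-0.56 ± 0.17, SE), and the metal-binding metallothioneins Mt2 (-0.37 ± 0.13, SE) and Mt1 (-0.22 ± 0.10, SE). Mt2 read 111, 159, 167, 103 and 141 CPM in D+V and 83.2, 110.0, 125, 101 and 106 CPM in D-V, so 3 of the 5 D+V libraries were above all D-V libraries. The median over this list was 0.01 and kept its sign in 14 of 23 alternative settings. With GC and length trends removed it was −0.04. In that fit 5 members were lower and 0 higher at an unadjusted p under 0.05, where 4.57% and 2.99% of all genes were. Mt2 was then at -0.45 and Mt1 at -0.31.

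Clock genes, which time the daily cycle and can mark differences in the hour of sampling, had 14 of 21 positive differences, with 1 higher and 2 lower at an unadjusted p under 0.05, against 5.11% and 8.6% of all genes. Clock, the transcription factor that names the group, was at 56.8, 87.6, 86.9, 69.2 and 83.4 CPM in D+V and 61.7, 61.6, 57.0, 50.4 and 53.8 CPM in D-V (log2 difference -0.43 ± 0.11, SE; adjusted p = 0.109). Without D+V replicate 1 it passed the threshold (adjusted p = 0.00472), and with GC and length trends removed its difference was -0.14. Dbp, an output gene of the clock, had 0.20 ± 0.09 (SE; 0.04 with the trends removed), and Per1, a negative regulator that stress and light also raise, 0.03 ± 0.08 (SE). The list median was 0.03.

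Heat shock genes had differences in both directions, with 2 higher and 2 lower of 24 at an unadjusted p under 0.05, against 5.11% and 8.6% of all genes, shares that also stand beside the lists that follow. Hsp90aa1, the inducible cytosolic HSP90, was at 967 ± 126 CPM in D+V and 795 ± 75.2 CPM in D-V (log2 difference -0.28 ± 0.08, SE), and Hspa4l, an HSP110 family chaperone, differed by -0.37 ± 0.11 (SE), which became -0.05 with GC and length trends removed. Hspb1, a small heat shock protein, read 8.63, 6.90, 3.73, 5.40 and 3.40 CPM in D+V and 9.84, 7.28, 13.8, 9.94 and 6.94 CPM in D-V, a difference of 0.75 ± 0.24 (SE). Among dendritic spine actin regulators 2 of 20 were higher at an unadjusted p under 0.05, Dbn1 as given and Baiap2, a scaffold that bends membranes (0.21 ± 0.08, SE; 0.12 with the trends removed). Rac1, a small GTPase of the actin skeleton, had 0.07 ± 0.04 (SE). Interferon and antigen presentation genes had 2 of 19 higher, H2-D1 (0.37 ± 0.12, SE) and Gbp2 (0.39 ± 0.15, SE), which were 0.22 and 0.20 without the libraries rich in choroid plexus markers. There the list median of 0.09 turned to −0.10. H2-K1 shares sequence with H2-D1, so the counts of these genes may not be fully separate.

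Dentate granule cell markers had 11 of 14 negative differences and 1 lower at an unadjusted p under 0.05, Dock10 (-0.30 ± 0.09, SE; -0.17 with the trends removed). Prox1, the transcription factor that specifies granule cells, was at 119, 137, 108, 133 and 139 CPM in D+V and 126, 106, 96.5, 105 and 111 CPM in D-V and overlapped (-0.22 ± 0.14, SE; adjusted p = 0.52), and C1ql3, a secreted synaptic organiser, differed by -0.20 ± 0.13 (SE). Receptors for monoamines, acetylcholine and histamine had 1 of 24 higher and 1 lower. Hrh1, the histamine receptor that motion sickness drugs block, was at 5.23, 4.87, 5.36, 5.08 and 5.81 CPM in D+V and 5.78, 5.19, 4.02, 4.82 and 5.97 CPM in D-V, a difference of -0.03 ± 0.20 (SE). Synaptic vesicle release genes had 1 of 20 higher and 1 lower, nuclear-encoded respiratory chain genes 0 of 24 in either direction, and cytosolic ribosomal protein genes 0 of 26 higher and 1 lower. With GC and length trends removed, 8 ribosomal protein genes were lower and 0 higher, where 4.57% and 2.99% of all genes were. Their median was −0.09 in that fit, against −0.01 before. Of the respiratory chain genes 3 were then higher and 1 lower. Choroid plexus markers had 18 of 20 positive differences with 0 at an unadjusted p under 0.05. Ttr, the thyroid hormone carrier that choroid plexus secretes, was at 73.1, 8346, 35.6, 43.3 and 1120.1 CPM in D+V and 49.9, 139.7, 9999.7, 4877 and 66.7 CPM in D-V, and its difference of 0.65 ± 1.48 (SE) became −0.59 without D-V replicate 3.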

How the data were processed

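RNA of 18 mouse hippocampus samples was measured by sequencing of polyadenylated RNA (Trizol extraction, oligo(dT) selection, NEBNext Ultra library kit, NovaSeq instrument), per the labels' protocols. The authors deposited a table of estimated counts per gene in which every library has its own column, per the file headers. Of its values 7.35% were not whole numbers. The submitters' processing notes name Bowtie2 2.2.8, HISAT2, StringTie 1.3.1 and DESeq2 with no role. Not given in the sources used here are the genome build, the annotation and the strand setting of the counting, and reads of overlapping and near-identical genes may be shared between them. Of 22063 identifiers 21973 had a symbol, 3732 were at 0 in every library, and identifiers without a symbol held at most 0.0591% of a library's counts. No molecular identifiers were used, and PCR copies count more than once.

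Counts were rounded. Genes kept by filterByExpr (14763, holding 99.97% of counts) were scaled by TMM and tested with edgeR 4.0.16 (quasi-likelihood F test, R 4.3.3) in a fit of 4 group means over all 18 libraries, with Benjamini-Hochberg adjustment and a threshold of 0.05. Common biological variation was 15.4%. CPM are scaled by TMM, and list scores use log2 CPM with a prior count of 2. Replicates of a group differed by more than counting noise. The 3 library values were tested by exact permutation, with 0.00794 as the smallest p possible. Libraries with a choroid plexus score above 0.5 were left out in an alternative added after seeing the data. GC and length trends were fitted per library with natural splines (5 degrees of freedom) on the longest GENCODE M21 transcript. The script was tested on simulated data. Other alternatives used DESeq2 1.42.0, limma 3.58.1 and sva 3.50.0.

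Genes named are the 10 rises and 10 falls of smallest p and the 4 of largest difference each way among genes at an unadjusted p under 0.05 (mean log2 CPM at least 1). The 3 members of smallest p in each list described are also named, and Fos, Arc, Npas4, Nr4a1, Bdnf, Per1, Fkbp5, Hrh1 and Ttr. Endoplasmic reticulum genes with a promoter element, Gria1, Gad1, Gad2, Ddit3, Cldn5, Slc1a2, Gfap and the Zfp genes were named after their values were seen. A result that the rule selects is not reported here. The comparison, the lists and the named genes were chosen with earlier results of these data known.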

Additional observations from a re-analysis of the deposited data

Results flagged for a closer look

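Among 191 groups of 5 values examined for a single library far from the other 4, 15 were found, where chance gives about 10. None was weighed further, and no cause was tested.

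Several of these values were in D-V replicate 5. Nr4a1 was at 75.2 CPM there, with the other 4 D-V libraries between 49 and 52.4 CPM. Arc was at 224 CPM against 122 to 144 CPM, and Dusp5 at 29 CPM against 21.6 to 22.8 CPM. The score of the immediate early genes was 0.168 in that library and −0.113 to −0.0364 in the others. Hsp90aa1 was low there, at 665 CPM against 799 to 848 CPM, and 15940 genes had a count, against 16201 to 16292.

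In D+V replicate 1, C1ql3 was at 57 CPM against 78 to 86 CPM, Per1 at 45.6 CPM against 52.1 to 54.6 CPM, and Bdnf at 30.7 CPM against 35.7 to 37.5 CPM. D-V replicate 4, rich in choroid plexus markers, had the lowest score of GABA signalling genes, −0.196 against −0.0253 to 0.0376, and the lowest Rora, 16.8 CPM against 20.4 to 22 CPM.

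Single genes were far from the rest in 4 more libraries. Mt1 was at 134 CPM in D+V replicate 4, with the others at 195 to 212 CPM. Vgf was at 177 CPM in D-V replicate 1, against 205 to 215 CPM, and Fkbp5 at 59.3 CPM in D-V replicate 3, against 66.4 to 68.8 CPM. Fam220a was at 15.3 CPM in D+V replicate 5 and 0 in the others.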

How the results depend on the processing

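With all 18 libraries edgeR called 0 genes for D-V against D+V. It also called 0 with RLE size factors, with no filter on low counts, with a stricter filter, with only the 10 libraries compared, with the replicate block, with GC and length trends removed and with both of the last. It called 1 with upper-quartile factors, 4 when the choroid plexus score entered as a covariate and 24 with the first surrogate variable. DESeq2 called 277 and limma voom with quality weights 819. Single libraries left out gave between 0 and 1230 calls. The 2023 genes at an unadjusted p under 0.05 became 3304 with limma voom, 1117 with the trends removed, 1036 with the replicate block and the trends removed, and 498 without the 6 libraries rich in choroid plexus markers, a fit with 3 D+V and 3 D-V libraries chosen after seeing the data; single libraries left out gave 1357 to 3519. The causes of these differences were not tested. No pairing by replicate number was visible (correlations of same-numbered samples −0.0271, −0.452, −0.307, −0.158 and 0.0346, none of the samples closest to its own number). The correlations also carry the choroid plexus differences between libraries, so they cannot exclude a pairing. With the replicate block 1794 genes were at an unadjusted p under 0.05.

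Of 1811 values of the 79 named genes under these alternatives, 1616 kept their direction and were not called, 158 kept it and were called (48 of them without D+V replicate 1), and 37 changed sign. Of the log2 differences that changed sign, Canx went to 0.0256 with the trends removed and 0.0257 with the block as well. Hsp90b1 went to 0.00362 with upper-quartile factors, 0.0317 with limma voom, 0.0467 with the trends removed and 0.0492 with the block as well. Per1 went to −0.00998, −0.0398 and −0.0414 under the last 3 of these settings. Fkbp5 went to −0.0306 and −0.028 under the last 2, to −0.000696 with RLE factors, −0.000658 with DESeq2 and −0.00234 with only the 10 libraries. Bdnf went to −0.0212 with limma voom and −0.000602 without the libraries rich in choroid plexus markers, where Hrh1 went to 0.111. Ttr went to −0.315 with the surrogate variable. With single libraries left out, Dnajc3 ranged from −0.000692 to 0.161, Fos from −0.145 to 0.249, Ttr from −0.585 to 3.25, Per1 from −0.0148 to 0.0758, Bdnf from −0.0211 to 0.0685, Hrh1 from −0.0906 to 0.0472, Hsp90b1 from −0.0932 to 0.0536 and Fkbp5 from −0.0662 to 0.0742. The difference in mitochondrial share ranged from −0.0723 to 0.485 percentage points. With 5 libraries a group, and 3 in the smallest fit, small differences may have gone undetected.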
